A study of Mus musculus with 16 samples.

Results

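The 9 genes described here encode lectin-like receptors of the natural killer gene complex and its neighbourhood on mouse chromosome 6, namely the NKG2 receptors Klrc1, Klrc2, Klrc3 and Klrk1, their partner or relatives Klrd1 and Klre1, the receptor Klrg1, and the NKR-P1 receptors Klrb1c and Klrb1f. They were chosen by gene name, taking every non-control probe whose name in the array files was one of these symbols, which gave 15 probes of 41174. At least 1 probe named for each of the 9 genes was bright enough to be tested, so that the genes make up 9 of 18404 genes tested. The Klrc3 probe tested also lists Klrc1 and Klrc2 transcripts, and the probe that lists Klrc3 alone was too dim to test. The RNA came from CD8 T cells sorted for CD8 and Thy1.2 out of female C57BL/6N mice aged 7 weeks and split by surface CD44 into a high fraction of memory phenotype and a low, naive fraction. Memory phenotype here means a sort gate on CD44 and not a known encounter with an antigen. The groups were memory stimulated, memory resting, naive stimulated and naive resting, with 4 arrays each. Stimulated cells spent 4 h in culture with PMA (10 ng/mL), which activates protein kinase C, and with the calcium ionophore ionomycin (500 ng/mL), so that the T cell receptor was not used, and resting cells spent 4 h in the same medium without them. The sort and culture were repeated on 4 occasions, so replicate arrays were taken as separate preparations of sorted cells. Whether the replicate numbers mark those occasions is not stated in the labels. No genotype or transgene separated the groups.

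Receptors of this family sit on natural killer cells and on part of the CD8 T cells, where they read molecules on other cells and raise or restrain killing. NKG2A pairs with CD94 and carries inhibitory motifs, NKG2C and NKG2E pair with the same CD94 but signal through the adaptor DAP12, and both kinds of pair bind the non-classical molecule Qa-1. NKG2D instead forms a dimer of its own, binds stress-induced ligands of the RAE-1, H60 and MULT1 families, and signals through DAP10 or DAP12, while KLRG1 binds cadherins and is a textbook marker of antigen-experienced, short-lived effector CD8 T cells.

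The array reports each gene through probes of 60 bases, and the probes of the NKG2 genes are given here because their overlap decides which gene a signal can be assigned to. Positions are on mouse build mm7 as the files give them, and all sequences read 5′ to 3′. In the dimmer Klrc2 probe the capitals mark the bases that differ in the Klrc3 promoter, and no other probe has capitals.
Klrc1 brighter probe (chr6:129692885-129692944, minus strand): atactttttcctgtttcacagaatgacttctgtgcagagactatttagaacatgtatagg
Klrc1 dimmer probe (chr6:129702039-129703844, minus strand): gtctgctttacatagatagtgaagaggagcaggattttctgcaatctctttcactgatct
Klrc2 brighter probe (chr6:129684091-129684150, minus strand): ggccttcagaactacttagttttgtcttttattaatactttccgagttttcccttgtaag
Klrc2 dimmer probe (chr6:129687276-129687335, minus strand): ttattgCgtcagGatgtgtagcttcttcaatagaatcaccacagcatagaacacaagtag
Klrc3 brighter probe (chr6:129662410-129662469, minus strand): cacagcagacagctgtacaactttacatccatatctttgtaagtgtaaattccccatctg
Klrc3 dimmer probe (chr6:129664854-129666054, minus strand): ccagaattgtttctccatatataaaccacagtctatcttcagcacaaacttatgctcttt
The files tie the brighter Klrc3 probe to RefSeq transcripts of 3 genes, Klrc3, Klrc1 and Klrc2, whereas the dimmer Klrc3 probe lists a Klrc3 transcript alone. The dimmer Klrc1 probe covers 1806 bases of genome, so its 60 bases are not contiguous there. Which exon, intron or UTR a probe falls in was not used here.

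The remaining 6 receptors were read by the following sequences, shown because each carries the level printed for its gene.
Klrd1 probe (chr6:129621685-129621744, plus strand): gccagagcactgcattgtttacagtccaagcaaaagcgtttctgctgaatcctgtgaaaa
Klrk1 probe (chr6:129635158-129635217, minus strand): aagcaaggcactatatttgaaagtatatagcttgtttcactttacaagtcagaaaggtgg
Klre1 brighter probe (chr6:129603375-129605318, plus strand): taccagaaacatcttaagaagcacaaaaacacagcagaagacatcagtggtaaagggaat
Klrg1 probe (chr6:122297046-122297105, minus strand): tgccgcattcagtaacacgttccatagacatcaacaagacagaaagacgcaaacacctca
Klrb1c brighter probe (chr6:128801824-128801883, minus strand): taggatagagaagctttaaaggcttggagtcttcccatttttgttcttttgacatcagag
Klrb1f brighter probe (chr6:129080242-129080301, plus strand): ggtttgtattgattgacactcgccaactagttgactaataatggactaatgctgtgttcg

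RefSeq promoter windows of 300 bases on build GRCm38.p6, which hold the start site at base 251, were found for 7 of the 9 genes, with 9 windows in all. Those of Klrc2, Klrc3, Klrc1 and Klrk1 are printed because the first 3 genes were read by overlapping probes and because Klrk1 held matches to 2 motifs. Capitals mark matches, on either strand, to the AP-1 motif TGANTCA or the Runx motif TGTGGTT, and AP-1 is a factor that PMA is known to activate.
Klrc2 promoter (chr6:129660507-129660806, minus strand): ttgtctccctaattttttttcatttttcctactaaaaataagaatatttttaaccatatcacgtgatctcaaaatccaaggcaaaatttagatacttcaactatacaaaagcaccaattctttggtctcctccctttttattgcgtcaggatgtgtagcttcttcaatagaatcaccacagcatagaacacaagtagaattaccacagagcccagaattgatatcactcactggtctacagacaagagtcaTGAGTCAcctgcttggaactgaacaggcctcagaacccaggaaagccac
Klrc3 promoter (chr6:129643239-129643538, minus strand): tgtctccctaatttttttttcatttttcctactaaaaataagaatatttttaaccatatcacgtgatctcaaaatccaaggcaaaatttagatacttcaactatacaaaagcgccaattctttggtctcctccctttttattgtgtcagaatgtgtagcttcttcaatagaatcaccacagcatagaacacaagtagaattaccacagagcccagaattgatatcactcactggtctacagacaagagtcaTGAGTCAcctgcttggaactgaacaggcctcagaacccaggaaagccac
Klrc1 promoter (chr6:129678924-129679223, minus strand): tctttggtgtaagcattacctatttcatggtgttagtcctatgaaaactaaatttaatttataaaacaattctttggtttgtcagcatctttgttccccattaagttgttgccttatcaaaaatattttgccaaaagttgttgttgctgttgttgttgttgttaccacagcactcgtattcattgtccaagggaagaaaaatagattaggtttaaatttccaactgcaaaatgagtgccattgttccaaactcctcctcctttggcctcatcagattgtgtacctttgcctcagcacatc
Klrk1 promoter (chr6:129623815-129624114, minus strand): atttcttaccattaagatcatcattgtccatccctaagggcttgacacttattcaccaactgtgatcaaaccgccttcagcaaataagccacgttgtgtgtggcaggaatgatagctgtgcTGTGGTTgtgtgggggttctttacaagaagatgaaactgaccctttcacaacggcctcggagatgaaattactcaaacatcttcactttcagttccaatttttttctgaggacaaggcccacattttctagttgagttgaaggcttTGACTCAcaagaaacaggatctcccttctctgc
The Klrc2 and Klrc3 windows matched at 296 of 299 aligned bases (99.0%), whereas an alignment of the Klrc1 window with that of Klrc3 paired 166 bases, 114 of them identical. An AP-1 match began at base 252 of the Klrc2 and Klrc3 windows and at base 268 of the Klrk1 window, and none was found in the Klrc1 window. Over all 32851 mouse windows, 7.8% held an AP-1 match and 5.3% a Runx match. The T-box letters GGTGTGA and the NFAT letters TGGAAAA had no match in the 9 windows, against 4.0% and 6.7% of all windows. All 60 bases of the dimmer Klrc2 probe were found at bases 138 to 197 of the Klrc2 window, upstream of the start site there, and 58 of the 60 at the same place in the Klrc3 window, with the substitutions C7T and G13A counted from the probe's 5′ end.

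Levels are log2 processed signal minus the array's 75th percentile, so that 0 is that percentile and 1 unit is a doubling, and a probe counts as above background where the extraction software marked it so. Levels are compared between groups for the same probe and never between probes. That percentile was 484.6 to 669.8 in units of intensity over the 16 arrays, and the share of probes above background was 59.1% to 66.4%. Replicate arrays correlated at 0.978 to 0.995 over all probes. The 4 arrays of each group shared a slide that held no other group, so slide and group cannot be told apart in any comparison here. Cd44, the gene of the sort gate, averaged 3.49 ± 0.10 in memory resting cells and -0.56 ± 0.13 in naive resting cells (SD, n = 4 each). Cd8a averaged 5.23 ± 0.14 in memory resting cells and 5.04 ± 0.39 in naive resting cells, so the labelled cell type was borne by its marker in both fractions.

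Most of the receptors were far higher in memory than in naive cells, whether or not the cells were stimulated. At rest, 8 of the 9 genes were higher in memory cells at an adjusted p below 0.05 (limma, Benjamini-Hochberg over all genes), 0 were lower and Klrd1 did not pass, with a median log2 change of 5.18 over the 9 genes and -0.01 over all genes. Of all genes tested, 13.9% were called higher and 7.66% lower in that comparison. A gene was tested where a probe was above background on at least 3 arrays of any group. Klrk1, Klre1, Klrg1 and Klrc2 met this only in memory cells, the fraction in which they were then called higher. After stimulation all 9 passed as higher in memory cells, with a median of 4.32 over the 9 genes and -0.05 over all genes, against 10.1% of all genes called higher and 14.1% lower. Every memory array lay above every naive array for 8 of the 9 genes at rest, as for 13.2% of all genes tested, and for 6 of 9 after stimulation, as for 11.6% of all genes tested. These counts include Klrc3, read by the probe that also lists Klrc1 and Klrc2. In bulk RNA, a larger share of cells carrying a receptor and more RNA per cell cannot be told apart. Most tested markers of natural killer cells were also higher in memory cells, and their values are given further on.

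**Figure D1:**
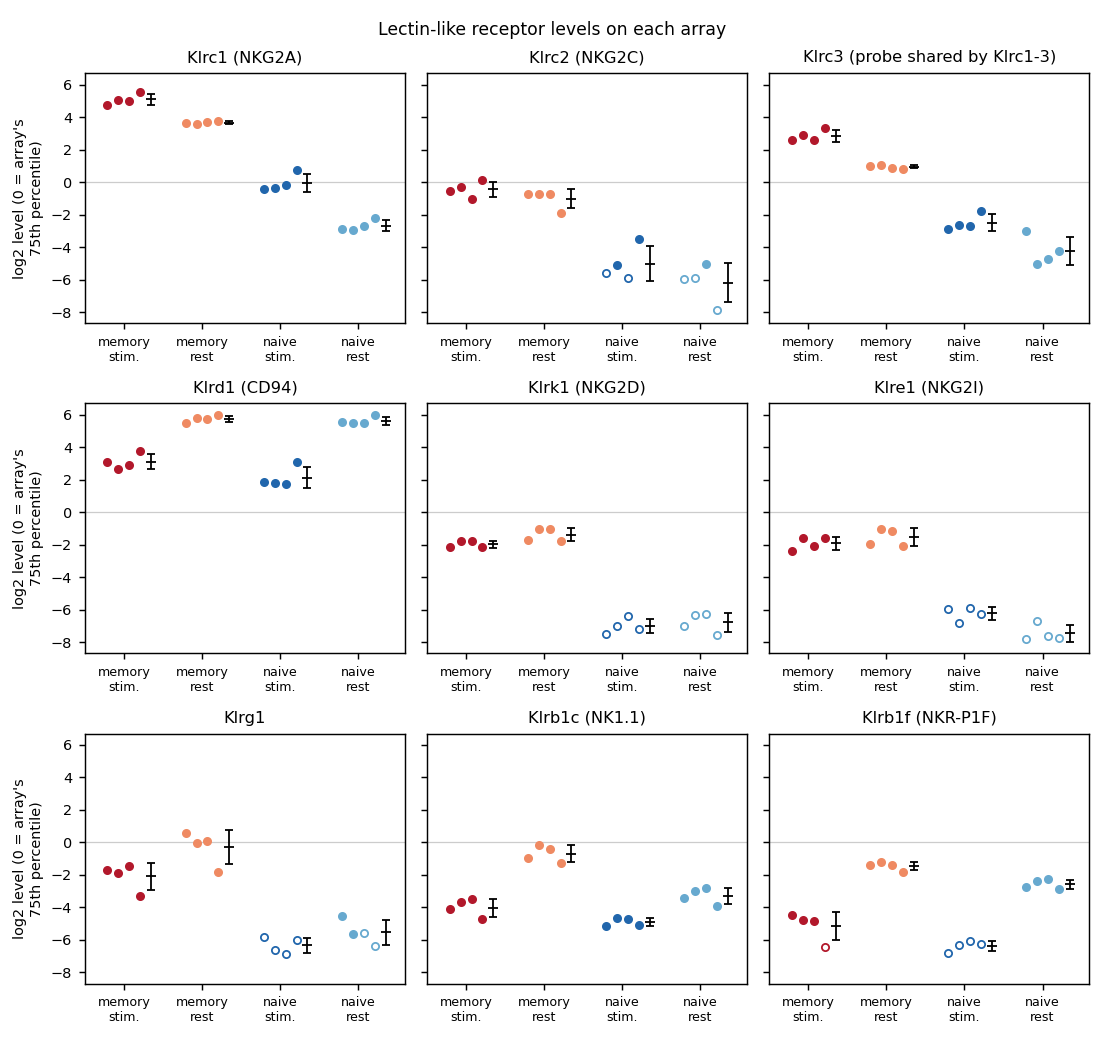
Level of each receptor on each array, as log2 processed signal with 0 at the 75th percentile of that array (y axis), in memory stimulated, memory resting, naive stimulated and naive resting cells (x axis). Filled points were above background and open points were not, and the black mark is the mean with its SD (n = 4). Klrc1, Klrk1 and Klre1 lie higher in both memory groups than in both naive groups, while Klrd1 lies lower in both stimulated groups than in both resting groups.

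Klrc1, which encodes the inhibitory receptor NKG2A, was far higher in memory than in naive cells and rose on stimulation in both. It read 3.62, 3.58, 3.70 and 3.74 on the memory resting arrays, against -2.87, -2.94, -2.70 and -2.20 on the naive resting arrays. After stimulation it read 4.77, 5.03, 5.01 and 5.56 in memory cells, against -0.42, -0.36, -0.16 and 0.76 in naive cells. Every memory array lay above every naive array, and within each fraction every stimulated array lay above every resting one, so that the order was memory stimulated, memory resting, naive stimulated and naive resting with no overlap between neighbours. The log2 change of memory over naive cells was 6.34 ± 0.24 (SE) at rest, or 80.8-fold (adjusted p = 1.98e-10, limma), and 5.14 ± 0.24 after stimulation, or 35.1-fold (adjusted p = 2.09e-09, limma). Stimulation raised Klrc1 by 1.43 ± 0.24 in memory cells (2.70-fold, adjusted p = 8.04e-05, limma) and by 2.63 ± 0.24 in naive cells (6.20-fold, adjusted p = 1.16e-07, limma). The dimmer Klrc1 probe gave 6.18 and 5.29 for memory over naive cells at rest and after stimulation, and 1.74 and 2.63 for the memory and naive responses.

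Klrd1 encodes CD94, the common partner of NKG2A, NKG2C and NKG2E, and its pattern over the 4 groups differed from that of Klrc1. At rest it read 5.46, 5.79, 5.73 and 5.96 in memory cells, against 5.55, 5.48, 5.46 and 6.00 in naive cells. These ranges overlapped, and the difference of 0.11 ± 0.28 did not pass the test (adjusted p = 0.823, limma). After stimulation it read 3.11, 2.65, 2.92 and 3.78 in memory cells, against 1.84, 1.82, 1.74 and 3.08 in naive cells, with replicate 4 the highest of its group in both. Klrd1 thus fell by 2.62 ± 0.28 on the log2 scale in stimulated memory cells (6.14-fold lower, adjusted p = 7.29e-07, limma) and by 3.50 ± 0.28 in stimulated naive cells (11.3-fold lower, adjusted p = 2.71e-08, limma), with no overlap between stimulated and resting arrays in either fraction. Klrc1 therefore rose in each fraction under the stimulus under which the gene of its partner fell. Stimulated memory cells kept a higher Klrd1 level than stimulated naive cells by 0.99 ± 0.28 (adjusted p = 0.0191, limma), but these ranges overlapped and the call was lost without memory stimulated replicate 4, naive stimulated replicate 2 or naive stimulated replicate 3 (adjusted p = 0.0568 to 0.062, limma) and in a fit of those groups alone (adjusted p = 0.0691, limma).

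Klrc2 encodes NKG2C, the activating counterpart of NKG2A. Its brighter probe read -0.72, -0.75, -0.75 and -1.88 in memory resting cells, against -5.96, -5.92, -5.06 and -7.90 in naive resting cells. After stimulation it read -0.58, -0.32, -1.04 and 0.12 in memory cells, against -5.61, -5.12, -5.92 and -3.50 in naive cells. All memory arrays were above background and above every naive array, while 2 naive stimulated arrays and 1 naive resting array were above background, so the sizes that follow rest mostly on naive signals near background. The fitted difference of memory over naive cells was 5.18 ± 0.57 at rest (adjusted p = 1.01e-05, limma) and 4.58 ± 0.57 after stimulation (adjusted p = 3.98e-05, limma). The response to stimulation did not pass in memory cells, at 0.57 ± 0.57 (adjusted p = 0.38, limma), or in naive cells, at 1.17 ± 0.57 (adjusted p = 0.079, limma), and stimulated and resting ranges overlapped in both. The naive response passed without naive stimulated replicate 3 or naive resting replicate 3 (adjusted p = 0.0275 to 0.0438, limma). The dimmer Klrc2 probe, the one that lies upstream of the RefSeq start, was above background on 3 memory stimulated and 4 memory resting arrays and on 0 arrays of either naive group, and put memory cells at least 1.99-fold higher after stimulation and at least 2.14-fold higher at rest. It was tested only through memory cells. The probe lists a Klrc2 transcript but matched the Klrc3 window at 58 of its 60 bases, and whether it also reads Klrc3 was not tested.

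The 2 probes named for Klrc3, the gene of NKG2E, did not behave alike. The brighter probe, which also lists Klrc1 and Klrc2, read 2.56, 2.89, 2.58 and 3.30 in memory stimulated cells, 1.01, 1.03, 0.89 and 0.82 in memory resting cells. It read -2.91, -2.64, -2.68 and -1.76 in naive stimulated cells. In naive resting cells it read -3.01, -5.03, -4.71 and -4.22. No neighbouring groups overlapped in that order, as for Klrc1, although naive resting replicate 1 lay close to the naive stimulated arrays. Memory cells were higher by 5.18 ± 0.35 at rest (adjusted p = 5.74e-08, limma) and by 5.33 ± 0.35 after stimulation (adjusted p = 6.90e-08, limma), and stimulation raised the probe by 1.89 ± 0.35 in memory cells (adjusted p = 0.000192, limma) and by 1.75 ± 0.35 in naive cells (adjusted p = 0.000403, limma). The probe that lists Klrc3 alone was above background on 1 memory resting array and on 0 arrays of the other groups, so it was not tested. Its levels were -6.53, -6.33, -7.18 and -7.55 in memory stimulated cells, -5.74, -5.42, -6.29 and -6.74 in memory resting cells, -7.75, -7.66, -7.23 and -7.49 in naive stimulated cells, and -7.70, -7.75, -7.65 and -7.73 in naive resting cells. The changes of the brighter probe can therefore not be assigned to Klrc3, and are counted above only under the name the files give it.

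**Figure D2:**
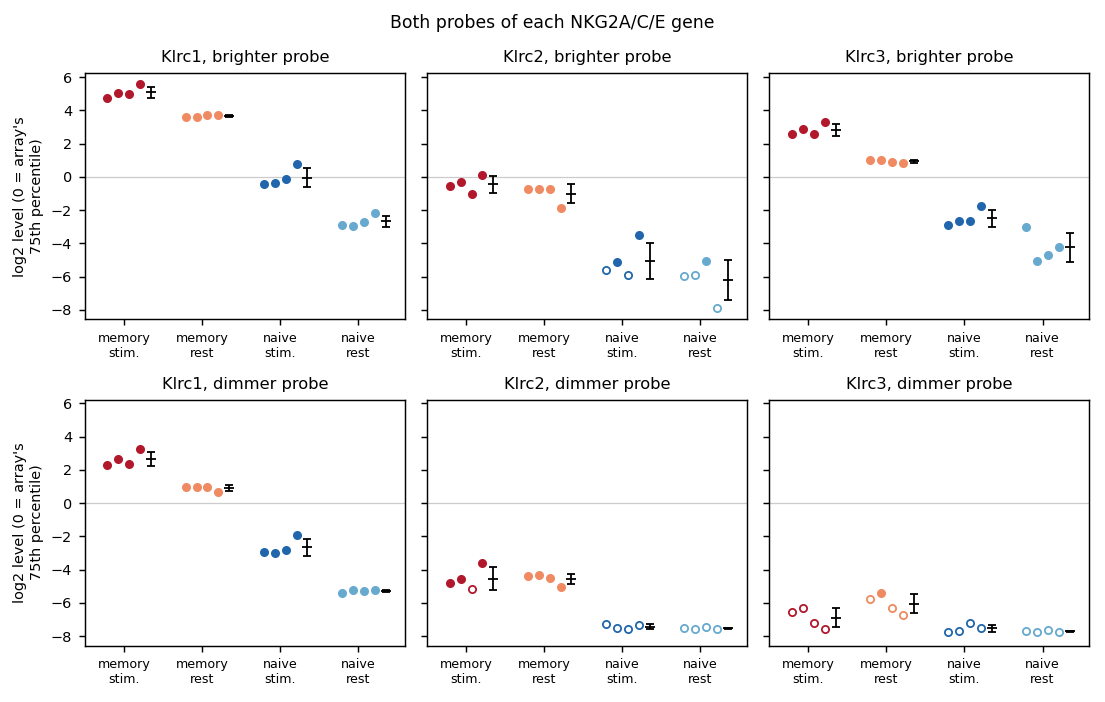
Both probes of Klrc1, Klrc2 and Klrc3 on each array, as log2 processed signal with 0 at the 75th percentile of that array (y axis), in the 4 groups (x axis), with filled points above background, open points not above it, and the mean with its SD (n = 4). The Klrc1 probes and the brighter Klrc3 probe step down across the groups in the same order, and the dimmer Klrc3 probe has 1 filled point.

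Klrk1 encodes NKG2D, the activating receptor for stress-induced ligands. It read -1.68, -1.03, -1.04 and -1.78 in memory resting cells, against -7.02, -6.32, -6.25 and -7.54 in naive resting cells. After stimulation it read -2.13, -1.78, -1.79 and -2.15 in memory cells, against -7.46, -6.98, -6.39 and -7.17 in naive cells. All 8 memory arrays were above background and 0 of the naive arrays were, so the difference is a bound: Klrk1 was at least 19.3-fold higher in memory cells at rest (adjusted p = 4.52e-09, limma) and at least 11.9-fold higher after stimulation (adjusted p = 1.53e-08, limma), where the bound sets the memory mean against the dimmest signals that count as above background. In memory cells the stimulated arrays lay just below the resting ones without overlap, and the change of -0.58 ± 0.29 did not pass (adjusted p = 0.0859, limma), although it did in a fit of those groups alone (adjusted p = 0.03, limma). No fold is given for naive cells. A further probe, described in the files as an NKG2-D cDNA but named there by a transcript identifier and so outside the 15, was above background on all memory arrays, on 4 naive stimulated arrays and on 3 naive resting arrays. It was higher in memory cells by 5.04 ± 0.23 at rest (32.9-fold, adjusted p = 8.62e-10 over all probes, limma) and by 4.53 ± 0.23 after stimulation (adjusted p = 3.32e-09 over all probes, limma). Unlike the Klrk1 probe it gave a measured naive response, an increase of 0.73 ± 0.23 with no overlap (adjusted p = 0.00965 over all probes, limma), while its memory response of 0.21 ± 0.23 did not pass (adjusted p = 0.409 over all probes, limma).

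Klre1 encodes NKG2I, a receptor described on mouse natural killer cells. Its brighter probe read -1.95, -1.02, -1.13 and -2.05 in memory resting cells, against -7.81, -6.66, -7.63 and -7.72 in naive resting cells. In stimulated cells it read -2.41, -1.58, -2.05 and -1.60 in the memory fraction, against -5.98, -6.78, -5.90 and -6.25 in the naive fraction. Memory and naive ranges lay far apart, with all 8 memory arrays and 0 naive arrays above background, and Klre1 was at least 17.4-fold higher in memory cells at rest (adjusted p = 3.11e-09, limma) and at least 12.3-fold higher after stimulation (adjusted p = 1.53e-07, limma). The response of memory cells, -0.37 ± 0.31, did not pass (adjusted p = 0.29, limma). In naive cells the test called an increase of 1.23 ± 0.31 (adjusted p = 0.00238, limma), but the probe was above background on 0 of those 8 arrays and the stimulated and resting ranges overlapped. The dimmer Klre1 probe was higher in memory cells at rest by 1.19 ± 0.30 (adjusted p = 0.0109 over all probes, limma) and not after stimulation, at 0.36 ± 0.30 (adjusted p = 0.417 over all probes, limma).

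Klrg1, whose product is an inhibitory receptor for cadherins, was higher in memory cells and fell in them on stimulation. It read 0.60, -0.05, 0.10 and -1.80 in memory resting cells, against -4.51, -5.60, -5.57 and -6.38 in naive resting cells. After stimulation it read -1.71, -1.88, -1.47 and -3.31 in memory cells, against -5.84, -6.63, -6.84 and -6.02 in naive cells. Memory and naive arrays did not overlap, and replicate 4 was the lowest in both memory groups. At rest the change was 5.23 ± 0.52 (37.5-fold, adjusted p = 3.29e-06, limma), with 2 of the 4 naive resting arrays above background, and after stimulation, where 0 of 4 naive arrays were, Klrg1 was at least 10.9-fold higher in memory cells (adjusted p = 3.27e-05, limma). Stimulated memory cells had 1.81 ± 0.52 less on the log2 scale than resting ones (3.50-fold lower, adjusted p = 0.00577, limma), a difference whose ranges overlapped only through memory resting replicate 4 and which was -2.31 without that array. In naive cells the change was -0.82 ± 0.52 and did not pass (adjusted p = 0.171, limma).

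Klrb1c and Klrb1f encode receptors of the NKR-P1 type, Klrb1c being the gene of the NK1.1 antigen of this strain. Klrb1c read -0.97, -0.15, -0.42 and -1.29 in memory resting cells, against -3.45, -2.97, -2.80 and -3.89 in naive resting cells. In stimulated cells it read -4.11, -3.68, -3.50 and -4.74 in the memory fraction, against -5.16, -4.64, -4.69 and -5.09 in the naive fraction. All 16 arrays were above background, the resting fractions did not overlap and the stimulated ones did. Klrb1c was 5.94-fold higher in memory cells at rest, a log2 change of 2.57 ± 0.31 (adjusted p = 2.30e-05, limma), and fell by 3.30 ± 0.31 in stimulated memory cells (9.85-fold lower, adjusted p = 1.29e-07, limma) and by 1.62 ± 0.31 in stimulated naive cells (3.07-fold lower, adjusted p = 0.000238, limma). The remaining difference between stimulated memory and naive cells, 0.89 ± 0.31 (adjusted p = 0.0477, limma), was a fragile call. It was lost without memory stimulated replicate 1, 2 or 3, memory resting replicate 1 or 3, any naive stimulated replicate, or naive resting replicate 1 or 2 (adjusted p = 0.0519 to 0.136, limma), with the authors' deposited table of values (adjusted p = 0.071, limma), with the mean of both probes (0.44, adjusted p = 0.134, limma) and with no filter on dim probes (adjusted p = 0.0731, limma).

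Klrb1f showed the steepest fall on stimulation in memory cells among the 9 genes. It read -1.42, -1.18, -1.37 and -1.80 in memory resting cells, against -2.77, -2.38, -2.27 and -2.85 in naive resting cells. In stimulated cells it read -4.49, -4.76, -4.84 and -6.41 in the memory fraction, against -6.78, -6.29, -6.08 and -6.27 in the naive fraction. Resting arrays lay above stimulated arrays in both fractions, 3 of 4 memory stimulated arrays and 0 of 4 naive stimulated arrays were above background, and the fractions overlapped only after stimulation. Klrb1f fell by 3.68 ± 0.33 in stimulated memory cells (12.8-fold lower, adjusted p = 7.15e-08, limma) and was at least 7.82-fold lower in stimulated naive cells (adjusted p = 5.23e-08, limma). Memory cells were higher at rest by 1.13 ± 0.33 (2.18-fold, adjusted p = 0.0226, limma), a call lost without memory resting replicate 1, 2 or 3 or naive resting replicate 4 (adjusted p = 0.0502 to 0.0612, limma), and at least 1.33-fold higher after stimulation (adjusted p = 0.0124, limma), a call lost in a fit of those groups alone (adjusted p = 0.0523, limma) and with the mean of both probes (adjusted p = 0.0508, limma). The dimmer probes of Klrb1c and Klrb1f were each above background on 3 memory resting arrays and on 0 arrays of the other groups, and put memory cells at rest at least 1.68-fold and 1.58-fold higher than naive cells. Both were tested only through memory resting cells, so they are not independent support for that direction. Neither was above background on memory resting replicate 4, where the Klrb1f probe read -5.62, close to -5.74 on naive resting replicate 2.

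Stimulation thus moved the 9 genes in both directions. In memory cells 2 were higher (Klrc1 and the shared Klrc3 probe), 4 were lower (Klrd1, Klrg1, Klrb1c and Klrb1f) and 3 did not pass, against 31.4% of all genes called higher and 39.1% lower. In naive cells 3 were higher (Klrc1, the shared Klrc3 probe and Klre1, the last below background), 3 were lower (Klrd1, Klrb1c and Klrb1f) and 3 did not pass, against 38.3% of all genes called higher and 30.9% lower. So many genes moved that these counts stand near the background. The naive response had a median of 0.15 over all genes, and quantile scaling moved that median to 0.01 without moving the 3 and 3 calls.

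**Figure D3:**
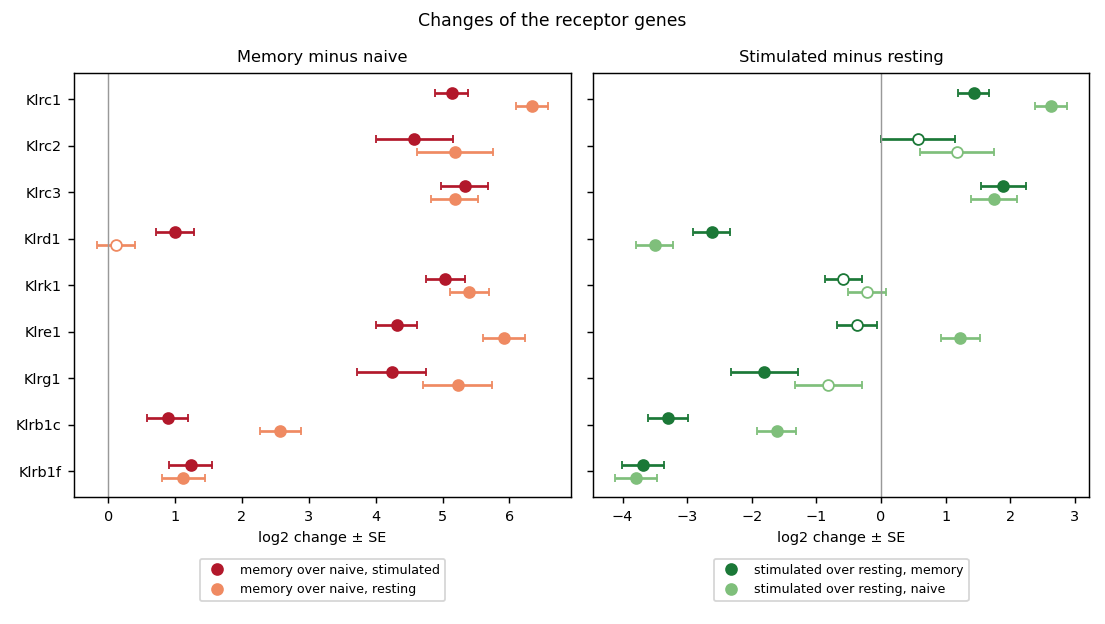
Log2 change of each receptor with its SE (x axis) for memory over naive cells in stimulated and resting cells (left) and for stimulated over resting cells in memory and naive cells (right). Filled points passed at an adjusted p below 0.05 and open points did not. Some changes are fitted values and not measured folds. They involve a group below background (Klrk1 and Klre1 in naive cells, Klrg1 and Klrb1f in naive stimulated cells) or mostly below it (Klrc2 in naive cells). Klrg1 was above background on 2 of 4 naive resting arrays. At left 8 of 9 resting points and 9 of 9 stimulated points are filled, all above 0.

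The test of the difference between the responses of memory and naive cells called 3 of the 9 genes, all with a lower response in memory cells, and 6 did not pass. Of all genes, 14.1% were called lower and 5.90% higher in that test. The response of Klrc1 was lower in memory cells by 1.20 ± 0.34 (adjusted p = 0.0223, limma), as both fractions rose and the naive one rose more. Its dimmer probe gave -0.89 ± 0.33 and did not pass over all probes (adjusted p = 0.0772, limma). The response of Klrb1c was lower by 1.68 ± 0.43 (adjusted p = 0.0129, limma), as both fractions fell and the memory one fell more. That of Klre1 was lower by 1.60 ± 0.44 (adjusted p = 0.0174, limma), a call that rests on naive values below background and was lost under quantile scaling (adjusted p = 0.0885, limma) and with the authors' deposited table of values (-0.21, adjusted p = 0.668, limma). The Klrd1 response differed by 0.88 ± 0.40 and did not pass (adjusted p = 0.141, limma), but did without naive stimulated replicate 4 (1.20, adjusted p = 0.0142, limma).

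Of 15 genes that carry signals from these receptors, 6 were higher and 2 lower in memory cells at rest, against 13.9% and 7.66% of all genes. After stimulation again 6 were higher and 2 lower, against 10.1% and 14.1% of all genes. The medians of the 15 were 0.00 at rest and -0.02 after stimulation, beside -0.01 and -0.05 over all genes. At rest the largest increases were those of Syk, a kinase that binds activated adaptor tails (1.66 ± 0.44, adjusted p = 0.014, limma), Fcer1g, an adaptor chain (1.47 ± 0.15, adjusted p = 4.44e-06, limma), and Tyrobp, which encodes DAP12, the adaptor of NKG2C and NKG2E (1.32 ± 0.22, adjusted p = 0.00042, limma). Hcst, the gene of DAP10 through which NKG2D signals, was higher in memory cells by 0.57 ± 0.14 at rest (adjusted p = 0.00883, limma) and by 0.70 ± 0.14 after stimulation (adjusted p = 0.00196, limma). Cd247, the CD3 zeta chain, was lower in memory cells at rest by 0.65 ± 0.14 (adjusted p = 0.00339, limma), as was the phosphatase gene Ptpn11 by 0.39 ± 0.13 (adjusted p = 0.0428, limma). On stimulation 5 of the 15 rose and 6 fell in memory cells, and 3 rose and 6 fell in naive cells. Those counts stand beside 31.4% higher and 39.1% lower among all genes in memory cells and 38.3% and 30.9% in naive cells. The kinase gene Zap70 rose by 2.33 ± 0.14 in memory cells and by 2.60 ± 0.14 in naive cells (adjusted p = 8.1e-10 and 2.41e-10, limma). Fyn, also a kinase gene, rose by 1.86 ± 0.16 and 2.29 ± 0.16 (adjusted p = 7.3e-08 and 6.91e-09, limma). Tyrobp fell by 1.04 ± 0.22 and 2.09 ± 0.22 in the same order (adjusted p = 0.000485 and 3.98e-07, limma). Inpp5d, a lipid phosphatase recruited by inhibitory receptors, fell by 2.68 ± 0.14 in stimulated memory cells and by 1.51 ± 0.14 in stimulated naive cells (adjusted p = 1.94e-10 and 1.27e-07, limma). Ptpn6, the phosphatase SHP-1 that docks to NKG2A, fell by 1.44 ± 0.29 in stimulated memory cells (adjusted p = 0.000417, limma) and also passed as lower in stimulated naive cells (adjusted p = 0.000299, limma).

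**Figure D4:**
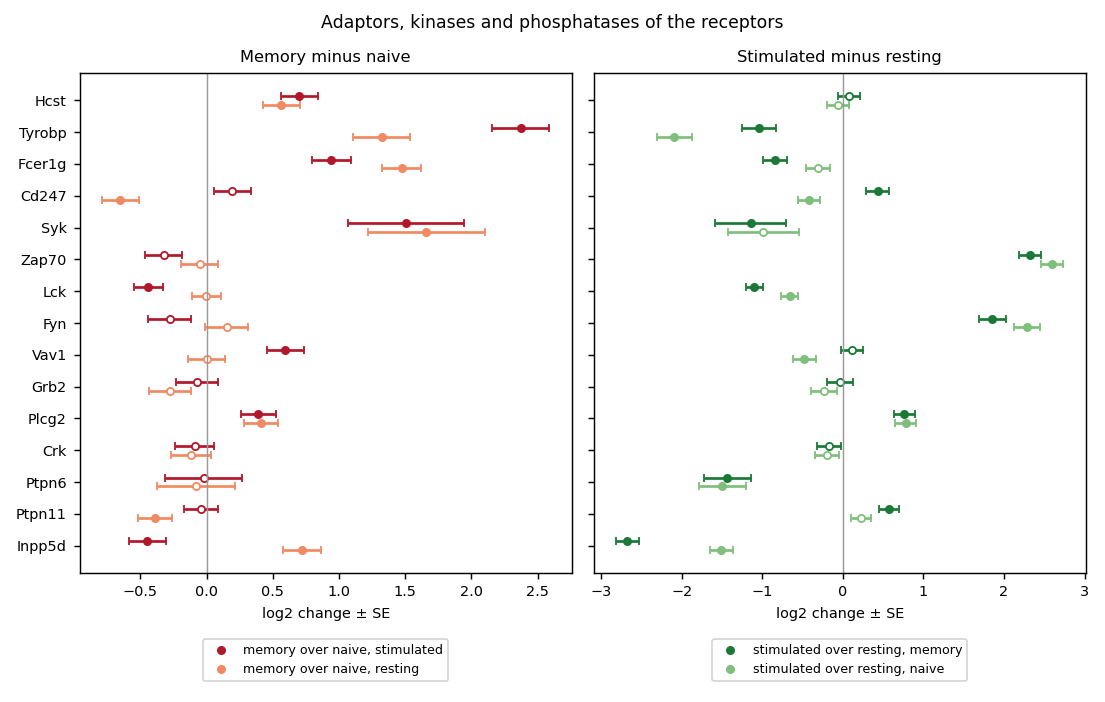
Log2 change with its SE (x axis) of 15 adaptor, kinase and phosphatase genes for memory over naive cells (left) and for stimulated over resting cells (right). Filled points passed at an adjusted p below 0.05. Tyrobp, Fcer1g, Syk, Hcst and Plcg2 are filled and above 0 at left in both stimulated and resting cells, and Inpp5d lies farthest to the left at right.

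Among 19 genes of ligands of these receptors 12 had a probe under their symbol on the array, and 7 of those were bright enough to test. The H60 genes had no such probe and were not measured. T cells can carry some of these ligands themselves. H2-T23, which encodes Qa-1, passed in 0 of the 4 comparisons, with changes between -0.04 and 0.16. At rest 1 ligand gene was higher in memory cells and 0 were lower, against 13.9% and 7.66% of all genes. That ligand gene was Cdh1, the gene of E-cadherin, a ligand of KLRG1 (2.64 ± 0.47, adjusted p = 0.000855, limma). After stimulation 0 ligand genes were higher and 1 was lower, against 10.1% and 14.1% of all genes. The lower gene was Ulbp1, which encodes the NKG2D ligand MULT1 (-0.83 ± 0.28, adjusted p = 0.0435, limma). On stimulation 0 rose and 6 fell in memory cells, where 39.1% of all genes were lower, and 0 rose and 3 fell in naive cells, where 30.9% of all genes were lower. The median change of the 7 was -1.09 in memory cells and -0.66 in naive cells, beside -0.16 and 0.15 over all genes. Cdh1 fell by 3.88 ± 0.47 in memory cells (adjusted p = 2.29e-06, limma), and Ulbp1 by 2.90 ± 0.28 in memory cells and by 2.72 ± 0.28 in naive cells (adjusted p = 2.18e-07 and 4.48e-07, limma). Clec2i, which encodes the NKR-P1 ligand Clr-g, fell by 1.15 ± 0.21 in memory cells and by 0.75 ± 0.21 in naive cells (adjusted p = 0.000192 and 0.00578, limma).

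Of 5 other lectin-like receptor genes of the same region 3 were on the array, and all 3 were tested. Klrb1a, Klrb1b and Klri2 were all higher in memory cells at rest, against 13.9% of all genes. Klri2 was at least 4.05-fold higher (adjusted p = 1.21e-06, limma), and Klrb1a was higher by 2.77 ± 0.72 (adjusted p = 0.0124, limma). Klrb1b had a fitted difference of 3.50 ± 0.64 (adjusted p = 0.00113, limma), with 1 of 4 naive resting arrays above background. After stimulation 2 of the 3 passed as higher in memory cells, against 10.1% of all genes. Klri2 was also higher after stimulation, by 2.16 ± 0.32 in memory cells (adjusted p = 1.96e-05, limma) and at least 1.60-fold in naive cells (adjusted p = 1.75e-05, limma), while Klrb1a and Klrb1b fell in memory cells by 2.76 ± 0.72 and 2.06 ± 0.64 (adjusted p = 0.00301 and 0.00975, limma).

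A further 9 genes serve interleukin-15 reception or encode transcription factors tied to effector and memory fate. In memory cells at rest 5 of the 9 were higher and 0 lower, against 13.9% and 7.66% of all genes. Tbx21, the gene of T-bet, was higher by 4.05 ± 0.20 (adjusted p = 1.70e-09, limma). Zeb2, the gene of a transcriptional repressor, was higher by 2.48 ± 0.20 (adjusted p = 3.66e-07, limma), and Eomes, a T-box factor close to T-bet, by 1.97 ± 0.22 (adjusted p = 1.00e-05, limma). After stimulation 2 of the 9 were higher and 3 lower, against 10.1% and 14.1% of all genes. Tbx21 was then lower in memory cells by 1.90 ± 0.20 (adjusted p = 6.48e-06, limma), as it rose by 6.17 ± 0.20 in naive cells (adjusted p = 1.21e-12, limma) and changed by 0.21 ± 0.20 in memory cells without passing (adjusted p = 0.339, limma). Stimulated naive cells thus had more Tbx21 than stimulated memory cells, while Klrc1, Klrk1, Klre1 and Klrg1 were lower in them by the values given above. A link between the Tbx21 level and these receptors was not tested. On stimulation 4 of the 9 rose and 3 fell in memory cells, where 31.4% of all genes were higher and 39.1% lower. In naive cells 6 rose and 1 fell, where 38.3% of all genes were higher and 30.9% lower. The medians of the 9 were 0.26 in memory cells and 1.13 in naive cells, beside -0.16 and 0.15 over all genes.

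Most tested markers of natural killer cells were higher in the memory fraction. They are given because such cells carry the same receptors. Of 9 markers listed, 8 were on the array and 7 were tested, of which 5 were higher in memory cells at rest and 6 after stimulation, with 0 lower in either. Of all genes tested, 13.9% were called higher at rest and 10.1% after stimulation, and these shares stand beside the counts of the other marker lists below. Ncr1 and Ncam1 did not pass at rest (adjusted p = 0.0825 and 0.0607, limma), nor did Ncam1 after stimulation (adjusted p = 0.697, limma). The summed signal of the 8 markers is in units of the array's 75th percentile. It ran between 3.48 and 4.07 in memory resting cells, against 0.965 to 1.30 in naive resting cells. For stimulated cells it ran between 2.45 and 3.14 in the memory fraction, against 0.662 to 0.787 in the naive fraction. The largest part in memory cells came from Klra8, a Ly49 receptor gene. Klra8 averaged 0.62 ± 0.21 in memory resting cells and -4.12 ± 1.40 in naive resting cells. Ncr1, the gene of the natural killer receptor NKp46, was above background on 3 memory stimulated arrays, 1 memory resting array and 0 naive arrays, with means of -5.41 ± 1.34 in memory stimulated and -5.70 ± 0.50 in memory resting cells. Itga2, the gene of CD49b, was above background on 0 arrays. Tyrobp and Fcer1g, also on this list, were above background on all 16 arrays. T cell markers summed to 408 to 469.8 in memory resting cells, against 398.6 to 577.6 in naive resting cells. Markers of monocytes, macrophages and neutrophils summed to 13.3 to 21.7 in memory resting cells, against 8.09 to 13.9 in naive resting cells. After stimulation they summed to 2.59 to 4.40 in memory stimulated cells, against 1.51 to 2.26 in naive stimulated cells. Of 5 markers of gamma-delta T cells, 3 were tested, of which 3 were higher in memory cells at rest and 2 after stimulation, and their summed signal was 14.9 to 20.2 in memory resting cells, against 0.254 to 0.629 in naive resting cells, nearly all of it from Cd163l1, a scavenger receptor gene. Dendritic cell markers summed to 1.95 to 2.35 in memory resting cells, against 0.432 to 0.922 in naive resting cells. Of the 3 tested 2 were called higher, Itgax by 2.50 ± 0.51 and Xcr1 by 1.14 ± 0.32 (adjusted p = 0.00251 and 0.0193, limma). Markers of CD4 or regulatory T cells summed to 0.266 to 0.318 in memory resting cells, against 0.063 to 0.114 in naive resting cells. Zbtb7b, a factor of the CD4 lineage, was higher by 3.44 ± 0.25 (adjusted p = 9.91e-08, limma). Cd4 did not pass, at 0.29 ± 0.17 (adjusted p = 0.259, limma). B cell markers summed to 1.30 to 1.58 in memory resting cells, against 1.63 to 2.22 in naive resting cells. After stimulation they summed to 0.183 to 0.254 in memory stimulated cells, against 0.217 to 0.410 in naive stimulated cells. The part of such cells in the receptor levels was not tested.

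Genes whose levels ran closely with each receptor over the 16 arrays are given as a description, since the arrays fall into 4 groups that share much of their difference. For Klrc1 they included Ccl5, a chemokine gene of memory CD8 T cells, with a Pearson r of 0.992, and Klra5, a Ly49 receptor gene, with 0.979. For Klrk1 all 3 were Ly49 genes, Klra15, Klra18 and Klra23, at 0.991, 0.987 and 0.987, and for Klre1 Klra6 came first at 0.986. Klrg1 ran most like Gzma, which encodes granzyme A, at 0.974, and Klrc2 most like the chemokine receptor gene Ccr2 at 0.952. Klrd1 ran most like Ifngr1, the gene of an interferon-gamma receptor chain, at 0.991, whose mean level was 5.04 in memory stimulated, 8.05 in memory resting, 3.97 in naive stimulated and 7.73 in naive resting cells. Klrb1f ran most like Sp110 at 0.983. Chpt1 had an r of 0.961 with Klrb1c, and Ccl5 one of 0.984 with the brighter Klrc3 probe.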

How the data were processed

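RNA of 16 samples was hybridised to 1-colour Agilent arrays. Per the file headers, the deposited intensity is the processed Cy3 signal of Feature Extraction 9.5.3.1, linear and corrected for background within each array but not normalized between arrays. A deposited set of the authors' own intensity values (33797 spots, median 149 on each array, lowest value 30) served as an alternative; how it was normalized is not stated in those headers.

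Outlier spots (59 to 116 of 43379 per array) were left out and spots of a probe averaged. Log2 signal minus each array's 75th percentile was fitted with limma 3.58.1 (lmFit, eBayes; R 4.3.3 with the data.table package, version 1.17.8) as 1 mean per group over all 16 arrays, with two-sided tests, Benjamini-Hochberg adjustment over 18404 genes and a threshold of 0.05. A probe was tested where it was above background on at least 3 arrays of a group (27350 probes, 14 of the 15 described), and the brightest probe on average represents a gene. "At least" folds set the bright group's mean against a floor on each array of the dim group, which is the lowest signal of any probe above background or, where that is higher, the signal of the probe itself. Values adjusted over all probes come from the same model fitted per probe. Of the probes, 32719 were named through RefSeq, and 8455 retain their name in the files.

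The genes named are the 9 receptors, genes among the 3 most alike to each by Pearson r (some are not reported here), and up to 3 of each pathway list per direction by size of change; Hcst, H2-T23, Ptpn6 and Clec2i were added after their values were seen. The receptors and lists were chosen with earlier results of these data known. The fit was tested on simulated data. Promoters were searched and aligned with Python 3.11.15 and Biopython 1.88, and figures drawn with pandas 2.3.3, numpy 2.4.6 and matplotlib 3.10.9. The number of arrays limits the precision. Alternatives were quantile scaling, normexp background correction, the authors' own values, other probe filters, the mean of a gene's probes, the replicate number as a block, fewer groups and each array left out.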

Additional observations from a re-analysis of the deposited data

Results flagged for a closer look

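Each probe of the receptors was looked at in each group of 4 arrays for an array far from the other 3, where the gap to the nearest array exceeded 0.829 of the group's range. Chance gives such a gap in about 1 in 20 groups, and 7 of 60 had one. Replicate 4 held 6 of the 7. On naive stimulated replicate 4, Klrd1 stood at 3.08 (nearest array 1.84) and the dimmer Klrc1 probe at -1.88 (nearest array -2.82), both high. On memory resting replicate 4, Klrc2 stood low at -1.88 (nearest array -0.75), and the dimmer Klrc1 probe low at 0.65 (nearest array 0.98). On naive resting replicate 4, Klrd1 stood high at 5.99 (nearest array 5.55) and the dimmer Klrb1c probe high at -6.59, although that probe was not above background there. Klre1 stood high at -6.66 on naive resting replicate 2, where it was not above background either. Over the 36 combinations of a receptor's representing probe and a group, replicate 4 was the highest of its group in 12 and the lowest in 16.

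The responses of memory and naive cells differed by the test of the difference itself for Klrc1 (-1.20, adjusted p = 0.0223, limma), Klre1 (-1.60, adjusted p = 0.0174, limma) and Klrb1c (-1.68, adjusted p = 0.0129, limma), each lower in memory cells, with the Klre1 value resting on naive arrays below background.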

How the results depend on the processing

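The arrays were not treated as paired by the replicate numbers in their titles, since not every pair passed the check and whether the numbers mark the 4 occasions is not stated in the labels: same-numbered arrays correlated in their deviations at -0.211 to 0.585 (16 of 24 pairs above 0.1), although 12 of 16 arrays correlated best with their own number. With the replicate number as a block the receptors called were 8 of 9 at rest, 9 of 9 after stimulation, 7 in the memory response, 6 in the naive response and 4 in the difference of responses, Klrk1 (memory response -0.58, adjusted p = 0.00597, limma) and Klrd1 (difference of responses 0.88, adjusted p = 0.0216, limma) being added. Leaving out each array in turn gave 7 to 8 at rest, 7 to 9 after stimulation, 6 to 6 in the memory response, 6 to 7 in the naive response and 3 to 4 in the difference. Normexp moved the counts to 6 at rest, 4 after stimulation, 3 in the memory response, 3 in the naive response and 0 in the difference (limma; 1 of 9 at an unadjusted p below 0.05), but its fit failed on 3 arrays, whose median corrected intensities were 399.4 to 1157.2 against 94.9 to 117 on the others. With parameters borrowed from the other arrays, an alternative chosen after seeing the data, the counts were 8, 7, 7, 5 and 4 in the same order, the Klrc1 difference of responses no longer passed (-0.55, adjusted p = 0.221, limma), and that of Klrb1f, 0.11 and not called before, was -0.56 (adjusted p = 0.0226, limma); the cause was not tested. Without replicate 4 of every group, also chosen after seeing the data, the naive Klrg1 response passed (-1.21, adjusted p = 0.0076, limma). Klre1 in naive cells (response 0.04, adjusted p = 0.888, limma) did not pass with the authors' table. Over all settings and receptors 1101 values kept their side of the threshold, of which 16 that were not called changed sign, while 48 lost the call, 11 gained it and 1 reversed. The slide could not be fitted as a block because each slide held 1 group. Signal close to background limits Klrk1, Klre1, Klrc2 and Klrg1 in naive cells and Klrb1f in naive stimulated cells.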
